A study of Rattus norvegicus with 8 samples.

Results

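Of 10 genes of salt handling in the distal nephron, 9 were measured on whole-transcript microarrays of rat kidney. Genes were taken by symbol. A gene counted as measured where a probe set was annotated to its symbol alone, which left 9 of the 18166 genes tested. Slc12a3, Trpm6 and Pvalb belong to the distal convoluted tubule. Klk1 is made mainly in the connecting tubule, Scnn1a, Scnn1b and Scnn1g encode the epithelial sodium channel, and Hsd11b2 and Sgk1 shape the response to aldosterone. Wnk4, a kinase that acts on the thiazide-sensitive cotransporter, has no probe set of its own. Its 3 probe sets are shared with Vps25 and Cntd1, so it has no value here.

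The arrays came from medulla (4 arrays) and cortex (4 arrays) of kidneys of male Wistar rats aged 10 weeks. All 8 carry one treatment label, ethylene glycol given each day together with vitamin D on alternate days for 1 week, so no untreated group was set beside them. Ethylene glycol is broken down to oxalate, and vitamin D raises calcium uptake, and the pair is used to form calcium oxalate crystals in the rat kidney. The labels name no animals, so each p-value rests on the scatter of the arrays alone, part of which may be technical. Replicate numbers were assigned here in label order within each region and are not part of the labels. Whether a medulla array and a cortex array of the same replicate number share an animal is not given. A pattern seen in both regions may thus not be independent.

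The distal nephron sets the final amount of sodium, potassium and magnesium in urine. In the distal convoluted tubule the thiazide-sensitive cotransporter takes up sodium with chloride, under the control of WNK kinases. Further along, aldosterone acts through the mineralocorticoid receptor to increase sodium entry through the epithelial sodium channel, and the kinase SGK1 slows the removal of that channel from the membrane.

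Array medians lay between 34.1 and 34.7 intensity units. The region labels were checked on marker genes. Slc14a2, which encodes a urea transporter of the inner medulla, lay between 6.15 and 7.42 log2 intensity on medulla arrays, against 4.80 to 5.88 on cortex arrays. It was the 1 of 4 inner medulla markers without overlap, since Aqp4, Slc5a3 and Akr1b1 overlapped between the regions. Markers of the podocyte, a cell of the cortical glomerulus, overlapped between the regions. The summed intensity of 3 measured podocyte markers of 5 listed ran from 415 to 726 in medulla and from 522 to 812 in cortex. In each region the kidney injury gene Havcr1 was highest on replicate 4 and next highest on replicate 3. It measured 4.54, 4.80, 8.95 and 11.32 on medulla replicates 1 to 4, and 4.59, 5.15, 7.54 and 11.27 on cortex replicates 1 to 4. In bulk tissue, fewer cells of a type and less RNA per cell cannot be told apart.

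Across the 9 measured genes, limma with Benjamini-Hochberg adjustment over all 18166 genes called 0 between the regions. A gene was called where it changed 2-fold or more and its adjusted p was below 0.05, and 0% of all genes met both conditions. At an unadjusted p under 0.05 stood 0 of the 9 and 971 of all genes (5.35%). limma with a trended robust prior, with array weights, or against a 1.5-fold change also called 0 of all genes. Pvalb, too dim for its sign to be read, aside, 8 of 8 differences were below 0, where 54.2% of all genes were. Their median was -0.31 log2, or -0.23 with Pvalb, beside -0.0071 over all genes. The signs of Hsd11b2 and Sgk1 turned when 1 medulla array was left out, to 0.060 without replicate 4 and to 0.020 without replicate 2. The regions overlapped in all 9, so that 0 lay wholly above in medulla (1.1% of all genes did), 0 wholly below (1.74%) and 0 either way (2.83%).

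**Figure D1:**
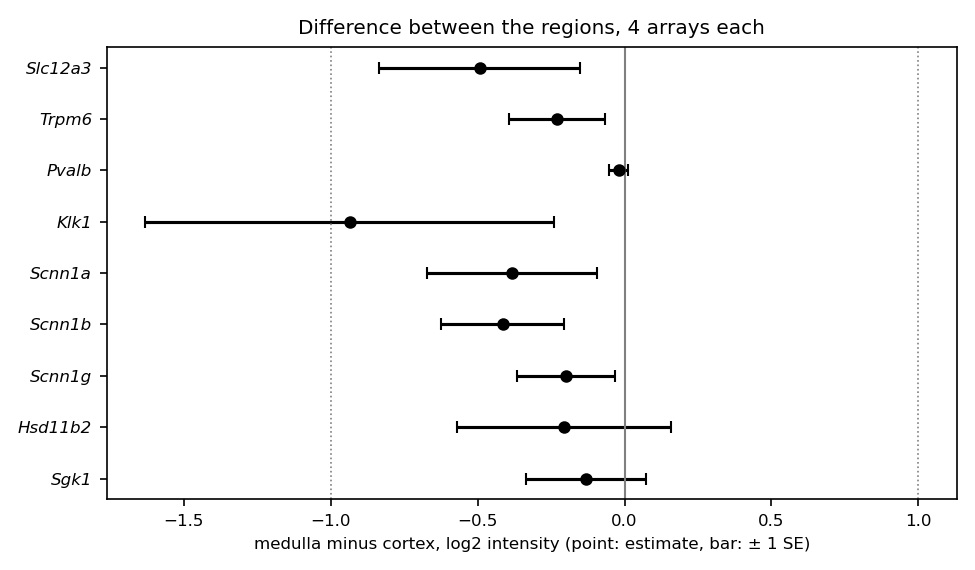
Medulla minus cortex difference in log2 intensity for each measured gene, with points as estimates and bars as ± 1 SE from limma (4 arrays per region). The solid line marks no difference and the dotted lines 2-fold. The points run from -0.93 for Klk1 to -0.019 for Pvalb, and no difference was called.

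The study selected genes that varied 2-fold or more in each region. Which arrays it set against each other is not given, so the full range among the 4 arrays of a region was counted here. The range reached 2-fold in 3 of the 9 genes in medulla (Slc12a3, Klk1 and Hsd11b2), beside 3.8% of all genes. It did so in 4 of the 9 in cortex (those and Scnn1a), beside 3.6%, and in 3 in both regions, beside 2.21%. In medulla the count was 1 without replicate 2 and 1 without replicate 4, and in cortex it was 2 without replicate 3. The median range of the 9 was 0.75 log2 in medulla and 0.79 in cortex, against 0.25 and 0.21 over all genes. The medians over all genes include dim genes.

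**Figure D2:**
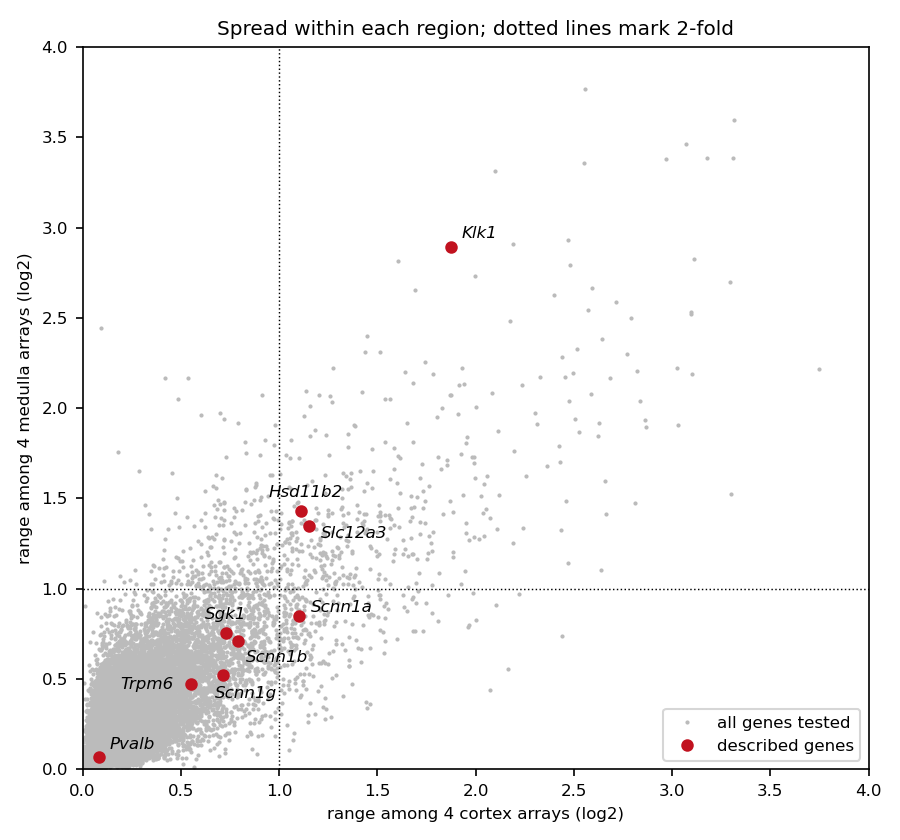
Range of each gene (highest minus lowest log2 intensity) among 4 medulla arrays (vertical) against that among 4 cortex arrays (horizontal), with the 9 genes in red and all genes tested in grey. Dotted lines mark 2-fold, and 5 genes lie beyond the axes. Klk1, Hsd11b2 and Slc12a3 pass 2-fold in both regions, Scnn1a in cortex alone, and Pvalb sits by the origin.

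Slc12a3, the thiazide-sensitive sodium chloride cotransporter, had a range within each region that was wider than the difference between the region means. It measured 9.28, 10.07, 9.55 and 8.72 log2 intensity on medulla replicates 1 to 4, against 9.37, 10.12, 10.52 and 9.61 on cortex replicates 1 to 4. Medulla replicate 2 and cortex replicate 3 were the highest of their regions, and the regions overlapped. The means were 9.41 ± 0.56 in medulla and 9.90 ± 0.52 in cortex (SD, n = 4 each). The medulla minus cortex difference was -0.49 ± 0.34 (SE), with limma's adjusted p at 0.878 and an exact two-sided permutation p of 0.2. With 4 arrays against 4 that test cannot go below 0.0286. The difference was -0.27 without medulla replicate 4 and -0.29 without cortex replicate 3. Between arrays of 1 region Slc12a3 spanned 2.55-fold in medulla and 2.22-fold in cortex. Without medulla replicate 4 the medulla range was 0.79 log2, and without cortex replicate 3 the cortex range was 0.75, both under 2-fold.

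**Figure D3:**
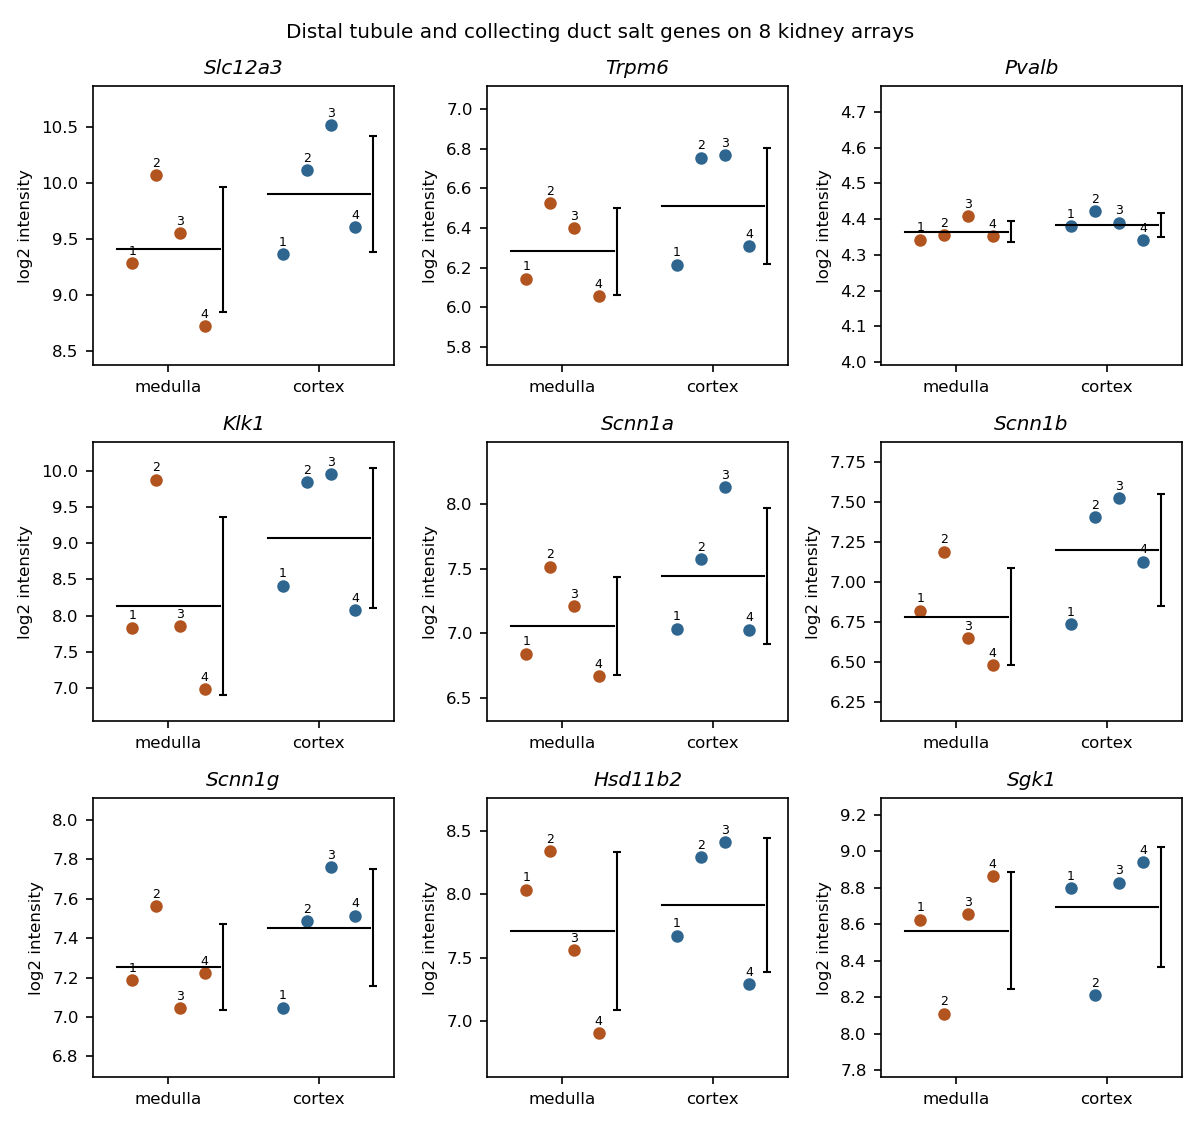
Log2 intensity of the 9 measured genes on each array, with medulla (orange) left of cortex (blue). Numbers are replicates, horizontal lines are means and bars are ± 1 SD (n = 4), and each panel has its own axis range. The regions overlap in all 9 panels, and medulla replicate 2 and cortex replicate 3 are the highest of their region in 7 panels each.

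Trpm6, the apical magnesium channel of the same segment, had the same highest and lowest arrays as Slc12a3 with a smaller spread. Its values were 6.14, 6.53, 6.40 and 6.06 on the medulla arrays, against 6.21, 6.75, 6.77 and 6.31 on the cortex arrays. Replicates 2 and 3 were the upper pair in each region, and the medulla range of 0.47 log2 and the cortex range of 0.55 stayed under 2-fold. The difference between the regions was -0.23 ± 0.16 (SE, limma's adjusted p = 0.878). Pvalb encodes the calcium-binding protein parvalbumin, a marker of the early distal convoluted tubule and also of fast skeletal muscle. Pvalb lay below the lower quartile of all probe sets on 8 of 8 arrays, at 4.34 to 4.41 in medulla and 4.34 to 4.42 in cortex. At such signals a difference may not be visible on the array, so Pvalb is left out of the counts of signs and of highest and lowest arrays. The 3 measured skeletal muscle markers summed to 104 to 112 intensity units in medulla and 105 to 113 in cortex.

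The promoter windows of Slc12a3 and Sgk1 are shown because these genes ran in different orders over the arrays. The RefSeq table on build GRCr8 holds windows of 300 bases, 250 before and 50 after the start, for 8 of the 10 genes. Scnn1a and Hsd11b2 are named only. For Sgk1, which has 3 windows, the one farthest downstream is printed. Capitals mark the TATA box hexamer TATAAA. They also mark the GC box hexamer GGGCGG, and both were sought on either strand.
Slc12a3 (chr19:10675001-10675300, minus strand): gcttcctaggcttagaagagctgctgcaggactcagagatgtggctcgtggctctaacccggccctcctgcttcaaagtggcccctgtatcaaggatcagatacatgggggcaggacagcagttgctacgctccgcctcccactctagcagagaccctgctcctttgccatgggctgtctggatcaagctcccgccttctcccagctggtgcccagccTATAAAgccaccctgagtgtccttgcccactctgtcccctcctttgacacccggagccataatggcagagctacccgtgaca
Sgk1 (chr1:24804782-24805081, minus strand): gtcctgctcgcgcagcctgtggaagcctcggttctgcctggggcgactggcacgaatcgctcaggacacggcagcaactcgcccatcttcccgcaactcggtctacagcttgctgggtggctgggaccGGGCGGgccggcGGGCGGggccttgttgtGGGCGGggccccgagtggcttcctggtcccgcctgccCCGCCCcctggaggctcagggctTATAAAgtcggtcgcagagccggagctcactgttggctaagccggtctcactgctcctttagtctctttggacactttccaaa
The Slc12a3 window held 1 TATAAA, at -32 from the start, and 0 GGGCGG. The printed Sgk1 window held 1 TATAAA, at -33, and 4 GGGCGG. Its other windows differed, with 1 TATAAA, at -55, and 0 GGGCGG in one and 0 TATAAA and 2 GGGCGG in another. Whether these motifs bear on the order over the arrays was not tested. Of all 33469 windows of this length, 14.2% hold TATAAA and 33.1% hold GGGCGG. The hexamer AGAACA, a half-site of steroid hormone receptors, was in neither printed window and is in 20.7% of all windows. It was found once in the window of Pvalb and once in each of 2 overlapping windows of Trpm6.

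Klk1, the true tissue kallikrein, a serine protease that frees kinins from kininogen, had the widest spread of the 9 genes. Log2 intensity was 7.83, 9.88, 7.86 and 6.98 on the medulla arrays, against 8.41, 9.84, 9.95 and 8.08 on the cortex arrays. Medulla replicate 2 and cortex replicates 2 and 3 lay at 9.84 or above, and the other 5 arrays lay at 8.41 or below. The range was 7.43-fold in medulla, the 16th widest of 18166 genes, and 3.67-fold in cortex, the 112th widest. Without medulla replicate 2 the medulla range was 0.87 log2, against 2.89 with it. Means were 8.14 ± 1.23 in medulla and 9.07 ± 0.96 in cortex (SD, n = 4 each), a difference of -0.93 ± 0.70 (SE) with limma's adjusted p at 0.878. That difference was -1.51 without medulla replicate 2 and -0.55 without medulla replicate 4.

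Klk1 lies in a cluster of related kallikrein genes, so its signal may be shared with paralogs, which was not tested. Of 10 paralogs listed, 8 had a probe set of their own, and limma called 0 of the 8 as different between the regions. The 8 differences had a median of -0.12. Of the 8, 4 lay below the lower quartile of all probe sets on at least 1 array, Klk1c6 on 8 of 8, so the signs and order of the paralogs were not counted. A range of at least 2-fold was found in 3 of the 8 in medulla and 2 in cortex. Klk1b3, another kallikrein-related protease, measured 9.68, 11.33, 10.47 and 10.12 on the medulla arrays, against 10.10, 11.30, 11.51 and 10.86 on the cortex arrays. As for Klk1, medulla replicate 2 and cortex replicate 3 were its highest arrays. Klk1c10 ranged over 1.63 log2 in medulla and 1.00 in cortex, and Klk1c9 over 1.11 in medulla and 0.96 in cortex. The 2 probe sets of Klk1c10 disagreed, since the other one ranged over only 0.10 in medulla and 0.19 in cortex. The lowest cortex array was replicate 1 for Klk1b3 and replicate 4 for Klk1.

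**Figure D4:**
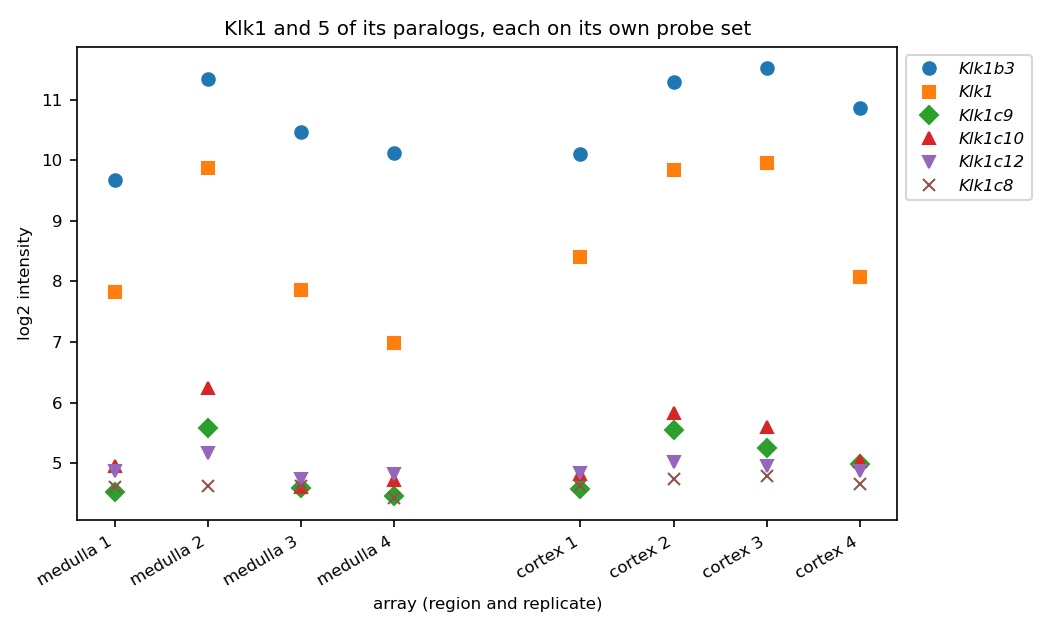
Log2 intensity of Klk1 and 5 of its 8 measured paralogs on each array, medulla arrays on the left and cortex arrays on the right, each gene on its own probe set. Klk1 and Klk1b3 are highest on medulla replicate 2 and cortex replicate 3, and Klk1c12 and Klk1c8 stay near the foot of the plot on every array.

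The start regions of Klk1 and Klk1b3 are shown to make the likeness of these paralogs visible. A global alignment paired 264 bases, of which 233 were identical (88.3%), with 31 mismatches and 72 unpaired bases. Capitals mark bases that are mismatched or unpaired in that alignment.
Klk1 (chr1:103778902-103779201, plus strand): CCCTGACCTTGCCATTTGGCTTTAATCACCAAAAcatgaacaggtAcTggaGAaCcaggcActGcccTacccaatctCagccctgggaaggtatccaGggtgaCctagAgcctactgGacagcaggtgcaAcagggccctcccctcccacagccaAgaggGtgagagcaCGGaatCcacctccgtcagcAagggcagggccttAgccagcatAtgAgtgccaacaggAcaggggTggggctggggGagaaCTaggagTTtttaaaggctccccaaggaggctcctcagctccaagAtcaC
Klk1b3 (chr1:103845397-103845696, plus strand): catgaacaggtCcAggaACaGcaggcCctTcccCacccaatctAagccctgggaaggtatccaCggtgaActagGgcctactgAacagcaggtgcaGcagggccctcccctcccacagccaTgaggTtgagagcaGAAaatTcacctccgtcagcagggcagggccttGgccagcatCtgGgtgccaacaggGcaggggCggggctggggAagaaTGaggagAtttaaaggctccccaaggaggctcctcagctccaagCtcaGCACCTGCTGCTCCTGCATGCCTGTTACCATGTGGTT
For comparison, the windows of Slc12a3 and Klk1, which are not related, had 54.6% identity over 280 paired bases under the same scoring. The Klk1 window held none of the 3 hexamers searched, and the Klk1b3 window held 1 GC box.

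Among the other genes of the kallikrein and kinin system, 4 of 7 listed were measured and 0 were called between the regions. Of the 4 differences, 2 were above 0 and 2 below. Kng1, which encodes the kininogen substrate, lay between 4.25 and 4.57 in medulla and between 4.30 and 5.05 in cortex. Bdkrb2, the kinin receptor of healthy tissue, ranged over 0.38 log2 in medulla and 0.67 in cortex, with its highest values on the replicate 4 arrays, 5.79 in medulla and 6.00 in cortex. Ace, the kinin-degrading peptidase that also makes angiotensin, ranged over 0.94 in medulla and 0.66 in cortex. None of the 4 reached a 2-fold range in either region.

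The 3 subunits of the epithelial sodium channel had the same highest arrays, medulla replicate 2 and cortex replicate 3. Scnn1a, the alpha subunit on which channel assembly depends, measured 6.84, 7.52, 7.21 and 6.67 on the medulla arrays, against 7.04, 7.57, 8.13 and 7.03 on the cortex arrays. Cortex replicate 3 was highest of all, and its cortex range of 2.14-fold came down to 0.55 log2 without that array. Scnn1b, the beta subunit, measured 6.82, 7.19, 6.65 and 6.48 in medulla, against 6.73, 7.40, 7.52 and 7.12 in cortex. Of the 9 genes it had the smallest unadjusted limma p, 0.0838, with a difference of -0.41 ± 0.21 (SE), an adjusted p of 0.875 and an exact permutation p of 0.143. Its difference lay between -0.57 and -0.31 when single arrays were left out. Scnn1g, the gamma subunit, measured 7.19, 7.56, 7.04 and 7.22 in medulla, against 7.05, 7.48, 7.76 and 7.51 in cortex. Replicate 4 was the lowest medulla array for Scnn1a and Scnn1b, and replicate 3 for Scnn1g. The differences were -0.38 ± 0.29 for Scnn1a and -0.20 ± 0.17 for Scnn1g (SE). The limma adjusted p-values were 0.880 for Scnn1a and 0.887 for Scnn1g. Without cortex replicate 3 the differences were -0.15 for Scnn1a and -0.10 for Scnn1g, and without cortex replicate 1 Scnn1g stood at -0.33.

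In the RefSeq table Scnn1b is the next protein-coding gene after Scnn1g, on the same chromosome. Over all 8 arrays the deviations of Scnn1b and Scnn1g from their own means differed by 0.18 log2 (root mean square), and those of Scnn1a and Slc12a3 by 0.16, the closest pair of the 36. Trpm6 and Scnn1b also differed by 0.18, Trpm6 and Scnn1g by 0.19, and Scnn1a and Scnn1g by 0.31. With deviations taken from the mean of each region instead, Scnn1b and Scnn1g were the closest pair of the 36, at 0.14. Trpm6 and Scnn1b, and Scnn1a and Slc12a3, then stood at 0.15. The windows of the neighbouring pair are shown with GGGCGG in capitals, and neither holds TATAAA.
Scnn1g (chr1:185735975-185736274, plus strand): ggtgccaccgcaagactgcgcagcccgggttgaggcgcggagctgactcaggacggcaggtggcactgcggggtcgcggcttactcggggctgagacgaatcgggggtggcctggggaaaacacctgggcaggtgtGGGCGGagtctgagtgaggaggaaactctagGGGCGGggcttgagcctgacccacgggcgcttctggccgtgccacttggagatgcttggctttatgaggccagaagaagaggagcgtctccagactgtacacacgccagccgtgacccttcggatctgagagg
Scnn1b (chr1:185861126-185861425, plus strand): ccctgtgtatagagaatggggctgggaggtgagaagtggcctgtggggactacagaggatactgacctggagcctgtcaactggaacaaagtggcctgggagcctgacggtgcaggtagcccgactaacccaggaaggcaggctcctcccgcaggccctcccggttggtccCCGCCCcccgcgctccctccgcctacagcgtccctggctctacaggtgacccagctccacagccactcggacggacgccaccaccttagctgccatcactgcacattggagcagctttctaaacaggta
The Scnn1g window held 2 GGGCGG and the Scnn1b window 1. They had 57.5% identity over 273 paired bases.

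Proteases that cleave and activate the channel, and their inhibitors, were counted as a list of 7, all measured. limma called 0, with 5 differences above 0 and 2 below. Prss8, the channel-activating protease prostasin, was lowest on the replicate 4 arrays, at 9.17 in medulla and 9.03 in cortex, and lay at 9.59 to 9.92 on the other medulla arrays and at 9.83 to 9.96 on the other cortex arrays. St14, the protease matriptase that activates prostasin, differed by 0.53 ± 0.21 (SE, limma's adjusted p = 0.875). Serpine2, an inhibitor of prostasin, differed by 0.27 ± 0.21. No gene of this list reached a 2-fold range in either region. Spint2, an inhibitor of such proteases named here after its values were seen, was the 1 gene of 58 in the pathway lists whose regions did not overlap. It measured 8.48 to 8.60 in medulla, against 8.44 to 8.47 in cortex, a mean difference of 0.082 log2. Of all genes, 2.83% had no overlap in either direction, and 1.1% had all medulla values above.

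Hsd11b2, the dehydrogenase that inactivates glucocorticoids and so reserves the mineralocorticoid receptor for aldosterone, had a range above 2-fold in medulla and in cortex. Its values were 8.04, 8.34, 7.56 and 6.91 on the medulla arrays, against 7.67, 8.29, 8.41 and 7.29 on the cortex arrays. Replicate 4 was the lowest array of each region, and the regions overlapped. The range was 2.69-fold in medulla and 2.16-fold in cortex. Leaving out the replicate 4 array brought it to 0.78 log2 in medulla and 0.73 in cortex. Means were 7.71 ± 0.62 in medulla and 7.92 ± 0.53 in cortex (SD, n = 4 each). The difference of -0.21 ± 0.36 (SE, limma's adjusted p = 0.953) turned to 0.060 without medulla replicate 4 and stood at -0.42 without medulla replicate 2.

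Sgk1, the kinase induced by aldosterone and by other stress and hormone signals, ran in another order. It measured 8.62, 8.11, 8.65 and 8.86 on the medulla arrays, against 8.80, 8.21, 8.83 and 8.94 on the cortex arrays. Replicate 2 was the lowest array and replicate 4 the highest in each region. Without medulla replicate 2 the medulla range was 0.24 log2, against 0.75 with it, and without cortex replicate 2 the cortex range was 0.14, against 0.73. The difference between the regions was -0.13 ± 0.21 (SE, limma's adjusted p = 0.950). It stood at 0.020 without medulla replicate 2 and at -0.29 without cortex replicate 2. Klk1 and Sgk1 had the largest root mean square difference of the 36 pairs, 1.26 log2 over 8 arrays. That measure grows with a gene's own spread, which was widest for Klk1.

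Of 11 steroid receptor and hormone target genes listed, 10 were measured, and limma called 0, with 5 differences above 0 and 5 below. Nr3c2, the mineralocorticoid receptor itself, measured 7.21, 7.12, 6.92 and 6.22 on the medulla arrays, against 7.12, 7.15, 7.00 and 6.09 on the cortex arrays. It was thus lowest on the replicate 4 arrays, where Havcr1 was highest, and its difference was 0.03 ± 0.30 (SE). Ndrg2, a gene induced by aldosterone in rat collecting duct, was also lowest there, at 7.48 in medulla and 7.01 in cortex, and lay at 8.76 to 8.79 on the remaining medulla arrays and at 8.38 to 8.96 on the remaining cortex arrays. Usp2, a deubiquitinase with an aldosterone-induced form, had its lowest values on them too, 5.48 in medulla and 5.61 in cortex. Replicate 4 was the lowest medulla array for 7 of the 10 genes and the lowest cortex array for 6. Over all genes it was lowest in 28.1% in medulla and 31.6% in cortex, and over genes with a 2-fold range in that region in 40.7% and 50.6%. Of the 10 genes, ranges of at least 2-fold were found in 1 in medulla and 4 in cortex.

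All 11 genes listed for the WNK kinase cascade were measured, and 0 were called. Wnk1, the kinase upstream of the cotransporter, measured 9.67, 10.30, 10.09 and 9.25 on the medulla arrays, against 9.82, 10.35, 10.74 and 9.23 on the cortex arrays. Its highest arrays, medulla replicate 2 and cortex replicate 3, were those of Slc12a3. Its second probe set was flat, at 5.78 to 5.80 in medulla and 5.68 to 5.79 in cortex. Klhl3, the adaptor that targets WNK kinases for degradation, differed by -0.26 ± 0.24 (SE), and Nedd4, a ubiquitin ligase, by 0.31 ± 0.16. Ppp1r1a, a phosphatase inhibitor, ranged most widely in the list, over 1.93 log2 in medulla and 2.86 in cortex, and was lowest on replicate 4, at 7.57 in medulla and 6.80 in cortex.

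Genes of other transporters and factors of the distal segments were 16 in the list and 13 measured. limma called 0, though 11 of the 13 differences were below 0, with a median of -0.18. A range of at least 2-fold was found in 7 of the 13 in medulla and the same number in cortex. Medulla replicate 2 was the highest medulla array for 7 genes, and cortex replicate 3 the highest cortex array for 8. Calb1, the calcium buffer calbindin of the connecting tubule, measured 7.74, 10.10, 10.47 and 8.74 in medulla, against 8.98, 10.28, 10.98 and 9.62 in cortex. Trpv5, the apical calcium channel, measured 4.86, 6.59, 7.56 and 8.60 in medulla, against 5.47, 6.53, 8.15 and 9.64 in cortex. Replicate 4 was thus its highest array in each region, and replicate 3 that of Calb1. Fxyd4, a regulator of the sodium pump in the collecting duct, was highest on the replicate 1 arrays, at 9.40 in medulla and 8.24 in cortex, and differed by 0.87 ± 0.54 (SE). Of 5 potassium secretion genes, 1 reached a 2-fold range in both regions. It was Kcnj1, the apical potassium channel ROMK, with 7.11 on medulla replicate 4 and 6.52 on cortex replicate 4 as its lowest values.

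The highest array of each region was the same for 7 of the 8 genes other than Pvalb. Medulla replicate 2 was the highest medulla array for 7 of the 8, all but Sgk1, and cortex replicate 3 the highest cortex array for the same 7. Over all genes medulla replicate 2 was highest in 27.0% and cortex replicate 3 in 23.8%, and over genes with a 2-fold range in that region in 23.4% and 9.94%. Medulla replicate 4 was the lowest medulla array for 6 of the 8, beside 28.1% of all genes and 40.7% of those with a 2-fold range. In cortex the lowest array was replicate 1 for 4 of the 8 (27.2% of all genes, 22.8% with a 2-fold range) and replicate 4 for 3 (31.6% and 50.6%). The count on cortex replicate 4 thus lay between its 2 background shares. The median deviation of the 8 from the mean of their region was -0.096, 0.43, -0.022 and -0.35 on medulla replicates 1 to 4. On cortex replicates 1 to 4 it was -0.41, 0.21, 0.41 and -0.25. Over all genes these medians lay within 0.01 of 0.

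Markers of other cells also differed between the arrays. The mean deviation of the podocyte list was -0.15, 0.47, -0.12 and -0.19 on the medulla arrays and -0.41, 0.11, 0.32 and -0.01 on the cortex arrays. All 3 measured podocyte genes were highest on medulla replicate 2 and cortex replicate 3. The inner medulla list (4 of 4 measured) deviated by 0.73, -0.55, 0.19 and -0.37 in medulla and by 0.61, -0.11, -0.20 and -0.30 in cortex. Its summed intensity ran from 552 to 1284 in medulla and from 299.6 to 564 in cortex. Replicate 1 was the highest array for 3 of the 4 inner medulla genes in medulla and for 4 of 4 in cortex, and for 0 of the 8 distal genes in either region. The tubular injury list (7 of 7 measured) summed to 1743 to 12756 in medulla and to 1620 to 10510 in cortex, and 6 of its 7 genes were highest on replicate 4 in each region. Intercalated cell genes were highest on medulla replicate 2 in 4 of 6 and on cortex replicate 3 in 4 of 6, with summed intensities of 734 to 1546 in medulla and 1030 to 1491 in cortex. Proximal tubule genes (10 of 10 measured) summed to 6478 to 9472 in medulla and 8104 to 10471 in cortex, with 9 of 10 differences below 0. Of 5 fibroblast genes, 5 were lowest on medulla replicate 2 and 4 on cortex replicate 3, with sums of 1296 to 2929 in medulla and 1062 to 2203 in cortex. Those were the arrays on which 7 of the 8 distal genes were highest. Urothelium genes summed to 199 to 441 in medulla and 162 to 185 in cortex, endothelial genes (3 of 5 measured) to 642 to 918 in medulla and 480 to 861 in cortex, and leukocyte genes to 549 to 1122 in medulla and 402 to 756 in cortex. Adrenal cortex genes stayed at 123 to 128 in medulla and 124 to 131 in cortex. The part of tissue make-up or injury in the spread of the distal genes was not tested.

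**Figure D5:**
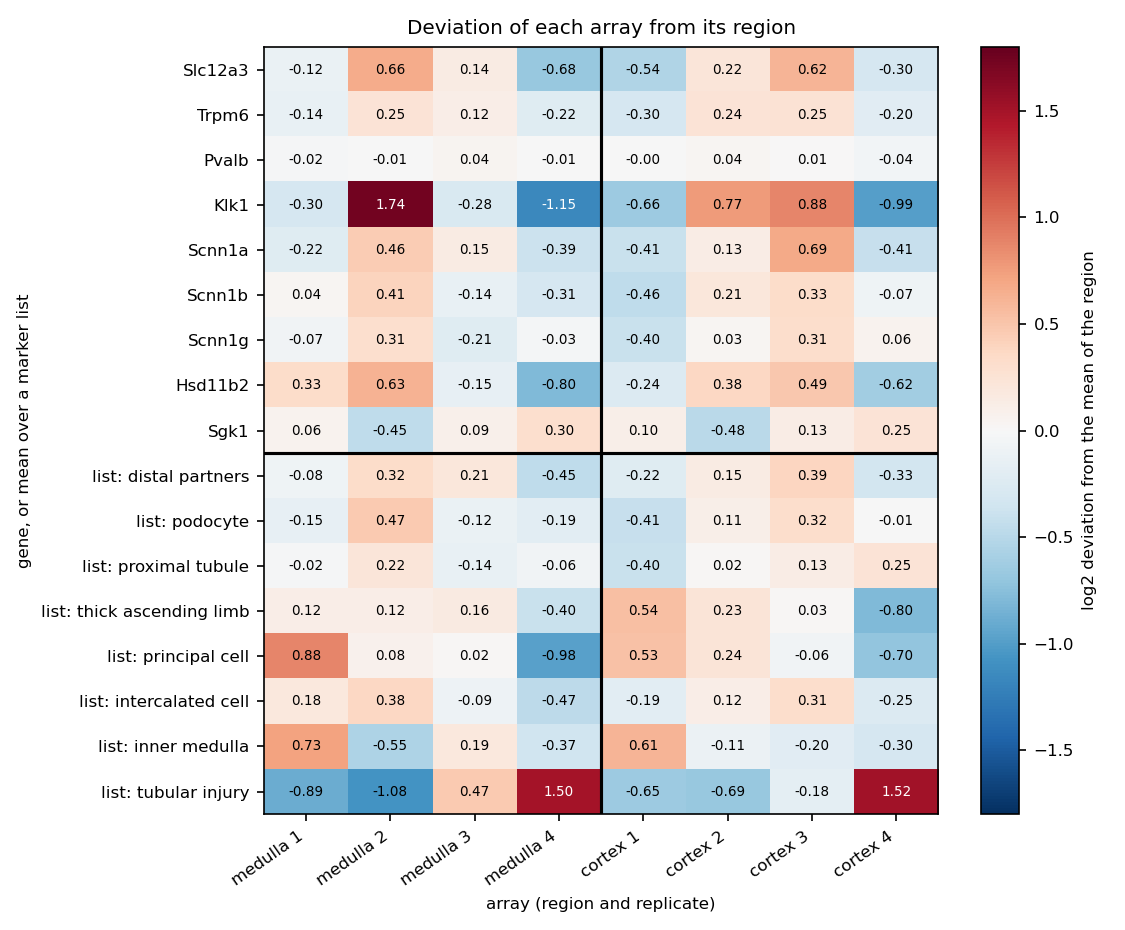
Deviation of each array from the mean of its region, in log2 units, for the 9 genes (above the line) and as the mean over 8 lists (below it), with medulla arrays on the left and cortex arrays on the right. Klk1 reaches 1.74 on medulla replicate 2, Sgk1 is at -0.45 there, and the tubular injury list is highest on the replicate 4 arrays, at 1.52 in cortex.

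Neighbouring segments were set beside the distal genes. Genes of collecting duct principal cells, which also carry the sodium channel, were highest on medulla replicate 1 and cortex replicate 1 in 6 of 6 genes, and lowest on medulla replicate 4 in 6 of 6. Their summed intensity ran from 702 to 3505 in medulla and from 551 to 1663 in cortex. Their median difference between the regions was 0.56, with 6 of 6 above 0. The principal cell list shares Aqp4 with the inner medulla list and Fxyd4 with the list of other distal transporters and factors. Kcnj1 is in both the thick ascending limb list and the potassium secretion list. Counts from these lists are thus not separate. Genes of the thick ascending limb (6 of 7 measured) had a median difference of 0.35, with 5 of 6 above 0 and summed intensities of 4126 to 7388 in medulla and 3036 to 7909 in cortex, and cortex replicate 4 was the lowest cortex array for 5. For the 8 distal genes the corresponding median was -0.31, with 8 of 8 below 0. Whether the lists differ was not tested, and limma called 0 genes in each.

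The genes most like each distal gene were sought among 1107 brighter genes with at least a 2-fold range over the 8 arrays, by the root mean square difference of deviations from each gene's mean over all 8. For Slc12a3 they were Ces2g (0.12 log2), Acsm3 (0.12) and Tmod2 (0.15). Scnn1b lay closest to Kcne1 (0.065), Gpd1 (0.10) and Hepacam2 (0.11), and Kcne1 and Hepacam2 were also among the 3 closest to Trpm6. For Scnn1a they were Defb11, Tmod2 and Atp2b4 (0.14 to 0.15), and for Scnn1g Acaa1b, Tmem205 and Slc51b (0.15 to 0.18). Hsd11b2 was followed by Pth1r (0.11), Atp6v1b1, a proton pump subunit of intercalated cells (0.12), and Ttc36 (0.12). Klk1 lay closest to Sfrp2 at 0.50, the sodium calcium exchanger gene Slc8a1 at 0.57 and Stk32a at 0.60. This measure grows with a gene's own spread, and Klk1 ranged over 2.97 log2 across the 8 arrays. Its values are therefore not comparable with those of flatter genes. Sgk1 was followed by Efna4 (0.19), Shfl (0.22) and Cxcl10 (0.22). Trpm6, Scnn1g and Sgk1 ranged over only 0.71, 0.72 and 0.83 log2 across the 8 arrays, under the 2-fold range set for the search. Genes as flat as these were not searched, so closer ones may exist. Pvalb was too flat for a match, with none under 0.25.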

How the data were processed

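Labelled RNA of kidney medulla and cortex was hybridised to Affymetrix arrays. The authors deposited 1 intensity for every probe set on each array. The submitters' processing notes name RMA and Affymetrix Expression Console, with no version, and the genome build and any filter are not stated in the labels. Values from 17.3 to 6229 and closely matched quartiles on all arrays fit a linear scale after normalization between arrays, and log2 was taken with no pseudocount. Of 29870 probe sets, 18511 had 1 symbol in the platform annotation, 575 had several and 10784 are unnamed here. For 291 genes the probe set with the highest mean was kept, giving 18166 genes with no filter on dim ones. Identical values numbered at most 1 between any pair of arrays. Detection calls were not used. The number of arrays limits the precision.

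Arrays were grouped by the region label and numbered in label order. Medulla was compared with cortex by limma 3.58.1 in R 4.3.3 (lmFit, eBayes, Benjamini-Hochberg over all genes), and single genes by an exact two-sided permutation test over arrays. The limma step was tested on simulated data. A range is the highest minus the lowest log2 value in a region, and a deviation is a value minus its region's mean. Promoter windows and gene order come from RefSeq, build GRCr8, and were aligned with Biopython 1.88 (match 1, mismatch -1, gap opening -3, extension -1). Figures used matplotlib 3.10.9. The planned protein comparison was not made.

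The 10 genes, 7 pathway lists and 13 marker lists were chosen with earlier results of these data known. Named from a pathway list were genes called by adjusted p (0), up to 3 with the largest smaller regional range and up to 2 with the largest difference. Alternatives were quantile normalization, median centring, averaging over probe sets of a gene, each array left out, a filter that drops the dimmest 30% of genes, a trended robust prior, array weights, a test against 1.5-fold, an adjusted p below 0.01, no fold condition, and ranges of 1.5-fold or 3-fold. Leaving out both replicate 4 arrays was added after the data were seen.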

Additional observations from a re-analysis of the deposited data

Results flagged for a closer look

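Of the 32 genes checked in 64 groups of 4 arrays, 8 groups had an array whose gap to the nearest other, as a share of the group's range, exceeded Dixon's critical value at the 95% level. Chance gives about 1 in 20 groups, but most of the genes checked were named for wide ranges on these same arrays, so the number is not set against that share. The 9 distal genes gave 0 of the 8, although single arrays stood well off in some: Klk1 was 9.88 on medulla replicate 2, against 6.98 to 7.86 on the others, and Sgk1 was 8.21 on cortex replicate 2, against 8.80 to 8.94.

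Low values on replicate 4 arrays were found in 5 genes. In medulla they were Ndrg2 at 7.48, against 8.76 to 8.79 on the others, Usp2 at 5.48, against 6.28 to 6.42, and Kcnj1 at 7.11, against 8.03 to 8.14. In cortex they were Nr3c2 at 6.09, against 7.00 to 7.15, and Prss8 at 9.03, against 9.83 to 9.96. High values were Bdkrb2 at 6.00 on cortex replicate 4, against 5.33 to 5.39, Ace at 8.38 on cortex replicate 3, against 7.72 to 7.79, and Klk1c9 at 5.58 on medulla replicate 2, against 4.46 to 4.60.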

How the results depend on the processing

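No paired analysis was made, because the labels number the arrays straight through both regions and name no pairs. The replicate numbers used here were assigned in label order within each region. Of 134 recomputed differences of the 9 genes, 2 turned in sign, Hsd11b2 to 0.060 without medulla replicate 4 and Sgk1 to 0.020 without medulla replicate 2, and 0 were called. With single arrays left out the lowest values of these differences were -0.42 for Hsd11b2 and -0.29 for Sgk1. The count of called genes was 0 under each alternative run. The smallest limma adjusted p over all genes was 0.875 with all arrays and 0.0995 without medulla replicate 2. In that fit the unadjusted limma p was 0.0286 for Klk1 and 0.0291 for Scnn1b, with an adjusted p of 0.495 for each. Without cortex replicate 1 the unadjusted limma p was 0.0182 for Scnn1b and 0.0439 for Scnn1g, with adjusted p of 0.513 and 0.594. The array left out was the highest medulla or the lowest cortex array of these genes, so their differences had to widen. The number of the 9 with a 2-fold range lay between 1 and 3 in medulla and in both regions, and between 2 and 4 in cortex, when single arrays were left out. With both replicate 4 arrays left out it was 1 in medulla and 1 in both. At 1.5-fold it was 6 in medulla, 7 in cortex and 6 in both, and at 3-fold it was 1 in each. Over all genes the 2-fold counts lay between 170 and 691 in medulla, 145 and 654 in cortex, and 84 and 379 in both when single arrays were left out. With both replicate 4 arrays left out they were 170, 145 and 45. At 1.5-fold they were 2738, 2063 and 1475, and at 3-fold 157, 186 and 96. Pvalb was left out by the filter on dim genes, and signals near the lower quartile limit what the array can show.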
